A study of Mus musculus with 20 samples.

Results

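The Wnt ligand genes Wnt5a and Wnt11, the secreted Wnt antagonist genes Dkk3, Sfrp1, Sfrp2, Sfrp5, Frzb and Wif1, and the feedback and nuclear genes Axin2 and Lef1 were followed through the left heart of newborn mice. The 10 genes were taken by symbol from the 55367 genes listed in the count files, and all 10 were among the 16598 that passed the filter on low counts. Axin2 and Lef1 are neither ligands nor antagonists; they belong to the cell-autonomous side of the pathway. Polyadenylated RNA was sequenced from hand-dissected chambers in 4 groups of 5 libraries, each numbered for an individual mouse of its group. These were left atria and left ventricles of C57BL/6J pups kept in hyperoxia (100% oxygen), and left atria and left ventricles of C57BL/6J pups kept in room air (21% oxygen); exposure began at birth and ended on postnatal day 4. The nursing dams were moved between both oxygen levels daily, no pup carried an engineered allele or drug, and the labels give neither sex nor litter. Whether same-numbered atria and ventricles came from the same pup is not stated, so p-values measure the spread between libraries.

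Wnt proteins are lipid-modified secreted ligands that bind Frizzled receptors, either with Lrp5 or Lrp6 to stabilise beta-catenin, or with Ror and related receptors to act on cell polarity and movement without beta-catenin. Secreted frizzled-related proteins (Sfrp1, Sfrp2, Sfrp5 and Frzb) and Wif1 bind the ligands outside the cell, while Dkk3 is a divergent member of the Dickkopf family whose effect on Wnt signalling differs between cell types. Wnt5a and Wnt11 act mostly without beta-catenin and are known for their part in outflow tract and early heart formation. Axin2 is a scaffold that beta-catenin induces as negative feedback, and Lef1 is a DNA-binding partner of beta-catenin.

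Each library held between 26510081 and 38244117 counts. The groups differed in more than oxygen and chamber. Hyperoxic atria 2 and 4 and room-air ventricle 4 carried relatively more reads on short transcripts, with slopes of log2 CPM (a gene's reads relative to the scaled library total) on log2 exon length of -0.289, -0.282 and -0.220, against -0.0689 to 0.133 elsewhere. In hyperoxic atrium 2, hyperoxic ventricles 2 and 6 and all 10 room-air libraries Y-linked reads exceeded those of Xist. The other hyperoxic libraries had more Xist. This difference thus ran largely alongside oxygen, and the parts of the 2 in the oxygen comparisons cannot be fully told apart. The chamber labels held: the ventricular factor Irx4 averaged 76.9 and 63.2 CPM in hyperoxic and room-air ventricles, and at most 0.294 CPM in either set of atria. The atrial light chain Myl7, at 4325 to 11370 CPM in hyperoxic atria and 6298 to 8447 CPM in room-air atria, was present at 2.66 to 128 CPM in hyperoxic ventricles and at 19.5 to 529 CPM in room-air ventricles. Myl2, a light chain of ventricular muscle, reached 328 CPM in room-air atrium 1 and 7.42 to 15.0 CPM in its 4 companions. In whole tissue, fewer cells of a type and less RNA per cell cannot be told apart.

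**Figure D1:**
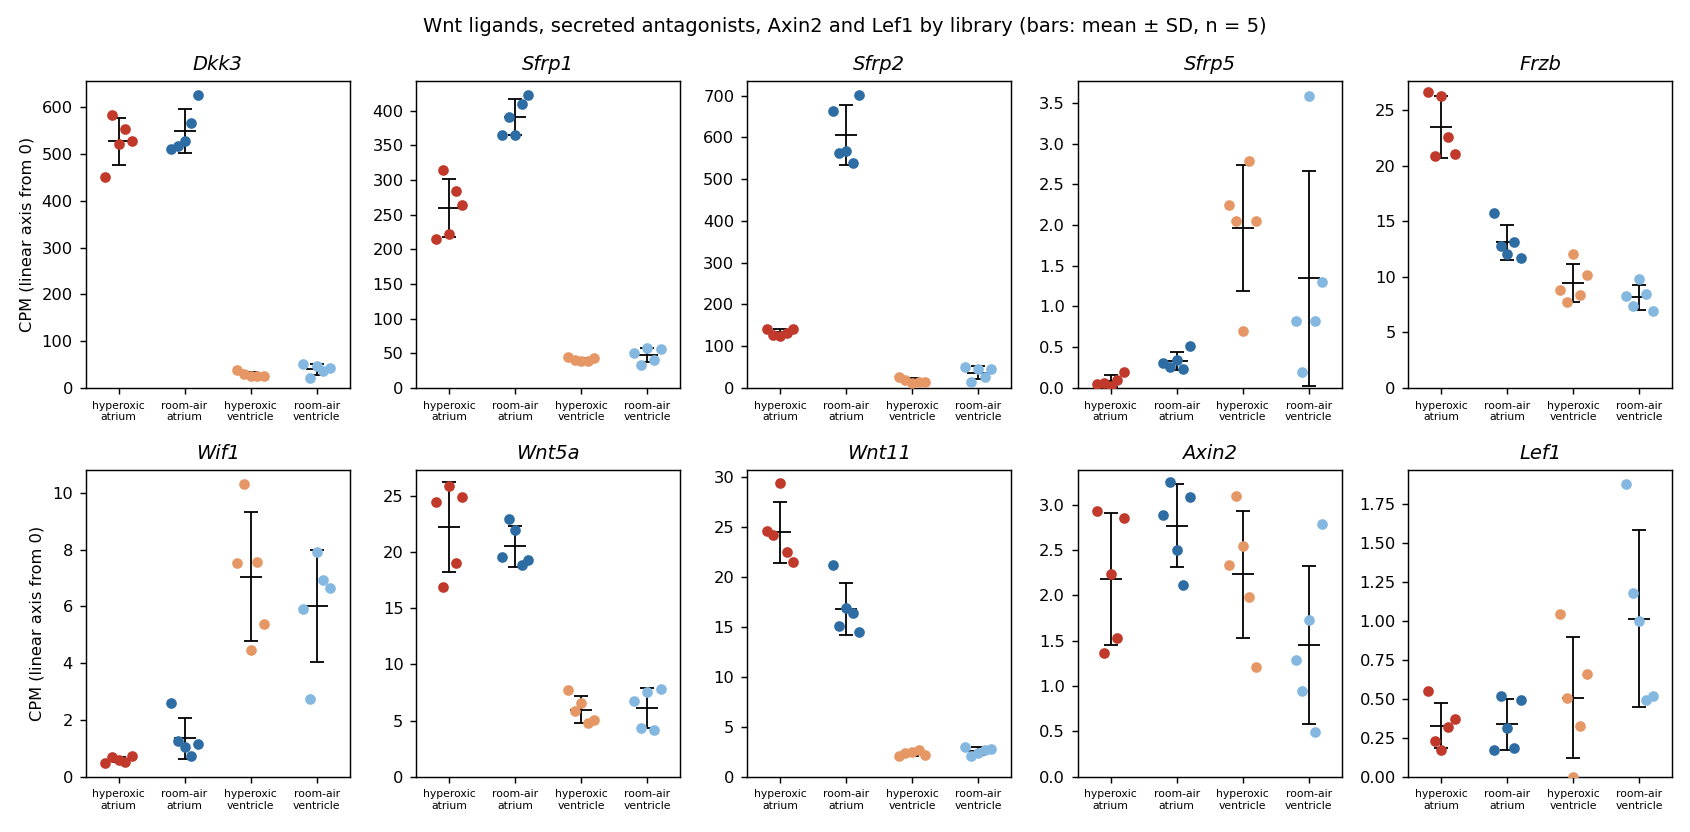
Level of each gene in CPM (linear axes from 0, different for each gene) in the 20 libraries. Points are libraries and bars are the mean ± SD of 5. Dkk3, Sfrp1, Sfrp2, Wnt5a and Wnt11 were far higher in atria than in ventricles, Wif1 and Sfrp5 stood the other way round, and in the hyperoxic atria Sfrp2 sat between 125 and 142 CPM, below the 537 to 700.3 CPM of the room-air atria.

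Which of the antagonists followed here was most abundant differed between the groups. Per kilobase of exon, Dkk3 led in hyperoxic atria at 157 ± 14.8 CPM per kb, whereas Sfrp2 led in room-air atria at 282 ± 33.1 CPM per kb (SD, n = 5 each). In hyperoxic atria Sfrp2 (61.8 ± 3.59 CPM per kb) and Sfrp1 (59.4 ± 9.57 CPM per kb) followed with overlapping libraries. In room-air atria Dkk3 (164 ± 14.2 CPM per kb) and Sfrp1 (89.4 ± 6.02 CPM per kb) followed Sfrp2, and none of the 3 overlapped. Among the antagonists followed here, these 3 genes held nearly all of the RNA in the atria. Antagonists outside the set are not counted, such as Igfbp4 at 298 CPM in hyperoxic atria and 470 CPM in room-air atria. Frzb, Wnt11 and Wnt5a came next at 7.26, 5.92 and 2.84 CPM per kb in hyperoxic atria, and at 4.05, 4.06 and 2.62 CPM per kb in room-air atria. Axin2 and Wif1 stood under 1 CPM per kb in both sets of atria, and Sfrp5 and Lef1 came last in each.

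In the ventricles the levels were lower and closer together. Sfrp1, Dkk3 and Sfrp2 averaged 9.36 ± 0.615, 8.67 ± 1.70 and 7.87 ± 2.63 CPM per kb in hyperoxic ventricles, and 10.8 ± 2.35, 11.8 ± 3.39 and 16.7 ± 7.32 CPM per kb in room-air ventricles. Sfrp2 was thus the lowest of the 3 on average in hyperoxic ventricles and the highest in room-air ventricles. Neighbours in this order overlapped in both groups. Frzb and Wif1 followed at nearly the same level, 2.92 and 2.91 CPM per kb in hyperoxic ventricles and 2.51 and 2.48 CPM per kb in room-air ventricles. The ligands were scarcer still, with Wnt5a at 0.764 and Wnt11 at 0.567 CPM per kb in hyperoxic ventricles, and 0.781 and 0.622 CPM per kb in room-air ventricles. Lef1 was the lowest in each of the 4 groups, at 0.0372 to 0.115 CPM per kb.

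Summed over the 6 antagonists, the level was 286 ± 21.1 CPM per kb in hyperoxic atria and 539 ± 44.5 CPM per kb in room-air atria, with ranges of 257 to 311 and 508 to 613 CPM per kb that did not overlap (SD, n = 5 each). Sfrp2 made up 21.8 ± 2.51% of that sum in hyperoxic atria and 52.1 ± 2.80% in room-air atria, and Dkk3 made up 54.9 ± 1.87% in hyperoxic atria and 30.4 ± 1.79% in room-air atria. The 2 ligands together reached 8.76 ± 1.04 CPM per kb in hyperoxic atria and 6.69 ± 0.621 CPM per kb in room-air atria. In every atrium the sum of these 6 antagonists per kilobase thus exceeded that of these 2 ligands. Other Wnt ligands and antagonists are not part of these sums. In ventricles the antagonist sum was 32.8 ± 5.07 CPM per kb in hyperoxia and 45.0 ± 14.0 CPM per kb in room air, with overlapping libraries.

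**Figure D2:**
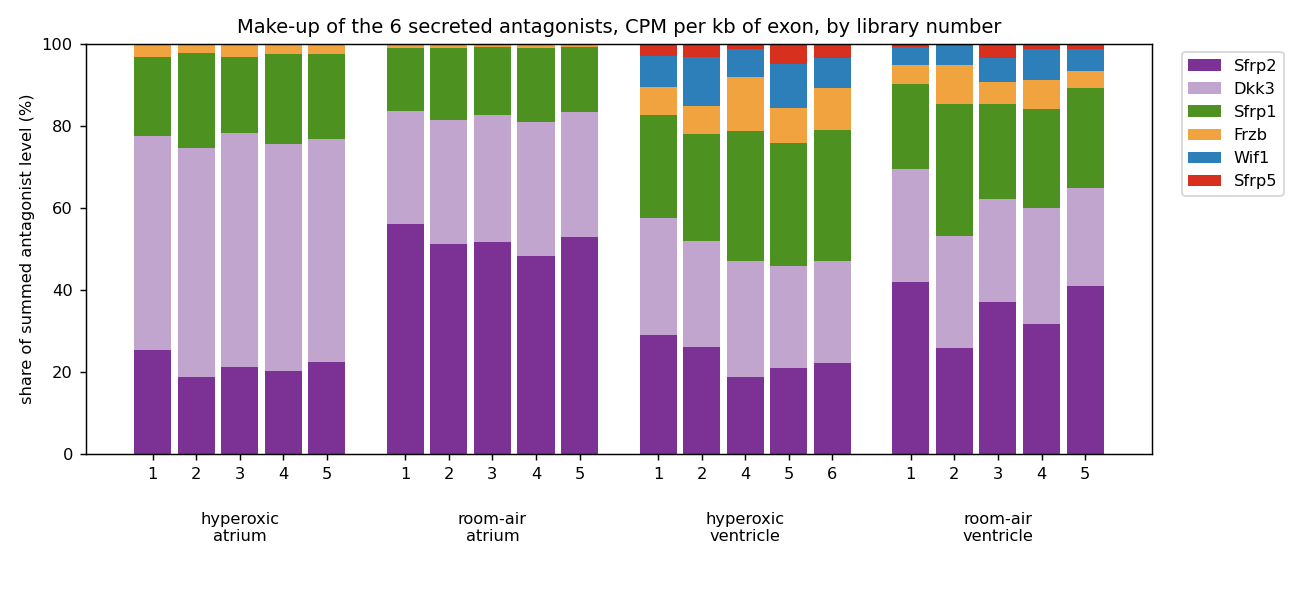
Share of the summed level of the 6 antagonists (CPM per kb of exon, stacked to 100%) in each library, by library number. Sfrp2 held 19.0 to 25.6% in hyperoxic atria and 48.3 to 56.0% in room-air atria; Frzb, Wif1 and Sfrp5 are visible as larger shares of the ventricular bars.

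The first comparison asked how these genes differed between hyperoxic and room-air atria. Of the 10 genes, 2 were higher in hyperoxia (Frzb and Wnt11), 4 were lower (Sfrp1, Sfrp2, Sfrp5 and Wif1) and 4 did not pass, at an adjusted p under 0.05 in edgeR's quasi-likelihood test, adjusted by Benjamini-Hochberg over all 16598 genes. In the same comparison 43.9% of all genes passed, 19.7% higher and 24.2% lower, so that 6 of 10 is a share not far above the background. The groups did not overlap for 6 of the 10 genes, against 32.9% of all genes. The median log2 difference was -0.20 over the 10 genes and -0.06 over all genes.

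Sfrp2, a frizzled-related protein (chromosome 3, 83766321 to 83774316, plus strand), had 142, 127, 125, 130.3 and 141 CPM in hyperoxic atria 1 to 5, against 663, 563, 567, 537 and 700.3 CPM in room-air atria 1 to 5. Every hyperoxic atrium was far below every room-air atrium, and the hyperoxic values lay close together. The means were 133 ± 7.72 CPM in hyperoxic atria and 606 ± 71.2 CPM in room-air atria, a 4.56-fold lower level (log2 difference -2.19, SE 0.25, adjusted p = 5.7e-07). The call held in all 32 other settings tried, with log2 differences from -2.26 to -1.94.

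Sfrp1, a closely related antagonist (chromosome 8, 23411502 to 23449632, plus strand), had 215, 314, 222, 284 and 264 CPM in hyperoxic atria, against 366, 391, 364, 410.1 and 423 CPM in room-air atria. The groups did not overlap, but the hyperoxic atria were spread more widely, and the tilted libraries 2 and 4 were the highest of them. The log2 difference was -0.59 (SE 0.13, adjusted p = 0.00069). When only libraries whose Y-linked reads exceeded those of Xist were compared, which leaves 1 hyperoxic atrium, it was -0.32 (adjusted p = 0.25).

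The scarce antagonists Sfrp5 and Wif1 were lower too. Sfrp5 (chromosome 19, 42197971 to 42202252, minus strand) had 2, 2, 1, 3 and 7 reads in hyperoxic atria, against 11, 11, 13, 9 and 18 reads in room-air atria, which is 0.0852 ± 0.0689 CPM in hyperoxic atria and 0.332 ± 0.113 CPM in room-air atria. All but 1 of the hyperoxic atria were thus at or under 3 reads. The fitted log2 difference was -1.95 (SE 0.68, adjusted p = 0.025). The call was lost without hyperoxic atrium 1, 2 or 3 or room-air atrium 5 (-1.80, -1.84, -1.70 and -1.73, adjusted p = 0.051, 0.054, 0.061 and 0.063). It was also lost without the tilted libraries (-1.87, adjusted p = 0.077) and with the length slope as covariate (-1.33, adjusted p = 0.15). Y-linked reads as a covariate lost it too (-2.08, adjusted p = 0.066), as did both covariates together (-1.28, adjusted p = 0.33). In libraries whose Y-linked reads exceeded those of Xist, with 1 hyperoxic atrium, the log2 difference was -2.46.

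Wif1, which binds Wnts through a domain of its own kind (chromosome 10, 121033960 to 121100650, plus strand), had 0.497, 0.680, 0.583, 0.511 and 0.713 CPM in hyperoxic atria, against 2.58, 1.25, 1.04, 0.724 and 1.16 CPM in room-air atria. The groups lie side by side without overlap, and room-air atrium 1, the library with ventricular Myl2, is the highest. The log2 difference was -1.17 (SE 0.34, adjusted p = 0.0074); without room-air atrium 1 it was -0.80 and still passed. With Y-linked reads as a covariate it was -0.98 (adjusted p = 0.079), and with the length slope too -0.90 (adjusted p = 0.19). In libraries whose Y-linked reads exceeded those of Xist, with 1 hyperoxic atrium, it was -0.98.

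Frzb, also known as secreted frizzled-related protein 3 in older names (chromosome 2, 80411970 to 80447625, minus strand), went against its relatives. It had 26.6, 20.9, 26.3, 22.6 and 21.1 CPM in hyperoxic atria, against 15.7, 12.8, 12.03, 13.2 and 11.7 CPM in room-air atria. Each hyperoxic atrium was above each room-air atrium, and the mean was 1.80-fold higher (log2 difference 0.84, SE 0.12, adjusted p = 1.2e-05). Wnt11, the ligand that rose (chromosome 7, 98835112 to 98855195, plus strand), had 24.7, 24.3, 29.4, 22.6 and 21.5 CPM in hyperoxic atria, against 21.2, 15.1, 16.9, 16.4 and 14.5 CPM in room-air atria. The highest room-air atrium, number 1, came close to the lowest hyperoxic one without overlap, and the log2 difference was 0.54 (SE 0.12, adjusted p = 0.00074). Both calls held in all 32 other settings, with ranges of 0.67 to 0.92 for Frzb and 0.47 to 0.64 for Wnt11.

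The other 4 genes did not pass in the atrium. Dkk3, the most abundant of the 10 in hyperoxic atria (chromosome 7, 112116017 to 112159057, minus strand), had 450.1, 584, 522, 553 and 527 CPM in hyperoxic atria, against 511, 518, 527, 566 and 626 CPM in room-air atria; the values interleave (log2 difference -0.06, SE 0.16, adjusted p = 0.79). Wnt5a (chromosome 14, 28504750 to 28527448, plus strand) averaged 22.2 ± 4.01 CPM in hyperoxic atria and 20.5 ± 1.82 CPM in room-air atria (0.12, SE 0.17, adjusted p = 0.60); with the length slope as covariate it was 0.39 and passed (adjusted p = 0.028). Axin2, the feedback scaffold (chromosome 11, 108920349 to 108950783, plus strand), averaged 2.18 ± 0.726 CPM in hyperoxic atria and 2.77 ± 0.459 CPM in room-air atria (-0.34, SE 0.32, adjusted p = 0.41), and its sign changed with the length slope as covariate (0.22). Lef1 (chromosome 3, 131110471 to 131224356, plus strand) averaged 0.327 ± 0.146 CPM in hyperoxic atria and 0.335 ± 0.165 CPM in room-air atria (-0.04, SE 0.59, adjusted p = 0.97). Lef1 had 7 to 22 reads in each hyperoxic atrium and 6 to 22 reads in each room-air atrium.

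**Figure D3:**
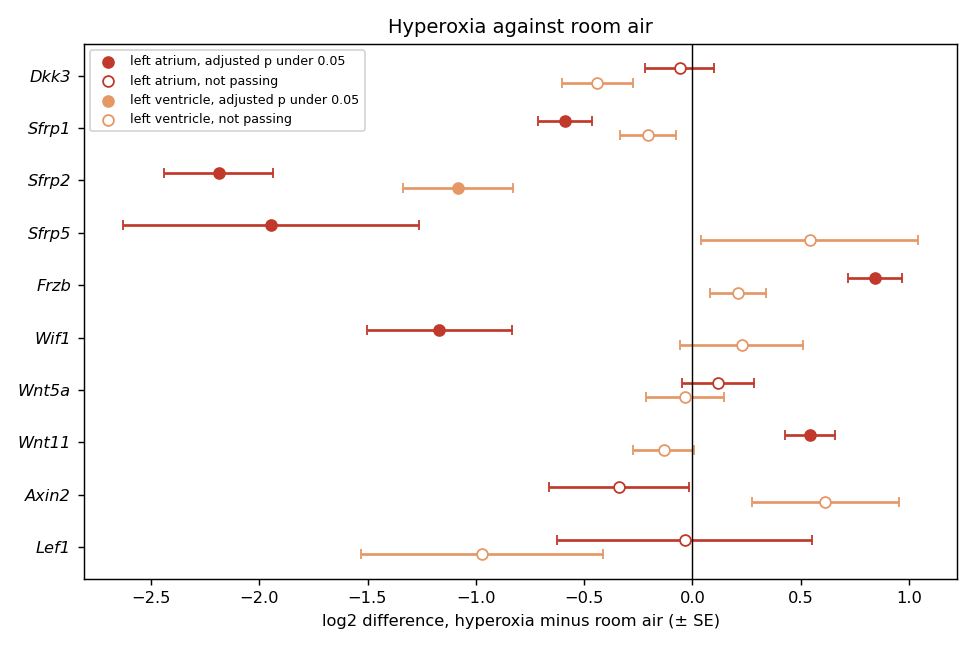
Log2 difference, hyperoxia minus room air, in the left atrium (red) and left ventricle (orange), with its standard error. Filled points passed at an adjusted p under 0.05. In the atrium 6 genes are filled (2 to the right of 0, 4 to the left) and Sfrp2 alone, at -1.08, in the ventricle.

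Summed marker RNA of several cell types also differed between hyperoxic and room-air atria. The 10 fibroblast markers summed to 7830 to 11020 CPM in hyperoxic atria and 15090 to 16220 CPM in room-air atria; 1 was higher, 8 were lower and 1 did not pass. The 8 endothelial markers summed to 812 to 977 CPM in hyperoxic atria and 1097 to 1278 CPM in room-air atria (1 higher, 7 lower), and the 6 endocardial markers to 637 to 973 CPM in hyperoxic atria and 970 to 1202 CPM in room-air atria (1 higher, 4 lower). The 8 epicardial markers ran the other way, at 529 to 582 CPM in hyperoxic atria and 346 to 508 CPM in room-air atria (3 higher, 1 lower, 4 not passing), as did the 8 macrophage markers, at 210 to 335 CPM in hyperoxic atria and 162 to 171 CPM in room-air atria (5 higher, none lower, 3 not passing). The 8 smooth muscle and pericyte markers summed to 1008 to 1377 CPM in hyperoxic atria and 1149 to 1313 CPM in room-air atria (2 higher, 5 lower), and the 10 atrial cardiomyocyte markers to 26150 to 50350 CPM in hyperoxic atria and 18260 to 23410 CPM in room-air atria (2 higher, 5 lower). None of these marker sets was at 0. Relative to the fibroblast sum, Sfrp2 was 1.27 to 1.62% in hyperoxic atria and 3.56 to 4.32% in room-air atria without overlap. Sfrp1 was 1.95 to 4.01% in hyperoxic atria and 2.26 to 2.72% in room-air atria, which do overlap. The fibroblast sum itself differed without overlap, which moves every such ratio upward in hyperoxic atria. Most of the sum came from Col3a1, Postn, Col1a2 and Col1a1, at 3459, 2401, 1552 and 1162 CPM in hyperoxic atria. In room-air atria these had 6338, 2717, 2798 and 2218 CPM. Tcf21 of the same list averaged 55.6 ± 4.50 CPM in hyperoxic atria and 46.6 ± 3.28 CPM in room-air atria. The part of cell makeup in the calls was not tested.

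The second comparison asked the same in the ventricle. None of the 10 genes was higher in hyperoxic ventricles, 1 was lower (Sfrp2) and 9 did not pass, against 10.9% of all genes passing in that comparison, 5.64% higher and 5.28% lower. No gene of the 10 was free of overlap between the groups, against 12.4% of all genes. The median log2 difference was -0.08 over the 10 genes and -0.01 over all genes.

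Sfrp2 had 25.5, 19.7, 11.3, 13.5 and 14.8 CPM in hyperoxic ventricles 1, 2, 4, 5 and 6, against 49.9, 13.4, 45.0, 25.6 and 45.9 CPM in room-air ventricles 1 to 5. Room-air ventricle 2 lay among the hyperoxic ventricles and room-air ventricles 1, 3 and 5 well above them. The log2 difference was -1.08 (SE 0.25, adjusted p = 0.012). With ventricular Myl7 as a covariate it was -0.14 (adjusted p = 0.72), and with Y-linked reads as a covariate -1.03 (adjusted p = 0.11). Myl7 itself averaged 38.9 ± 52.9 CPM in hyperoxic ventricles and 231.5 ± 203.5 CPM in room-air ventricles. The parts of Myl7 and oxygen in that fit cannot be fully told apart.

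The level of Sfrp2 and Dkk3 in ventricles was highest where the atrial light chain was highest. Room-air ventricles 1, 3 and 5, with 529, 310.2 and 227 CPM of Myl7, were the 3 highest ventricles for both genes and for Sfrp1. Room-air ventricle 2, with 19.5 CPM of Myl7, was the lowest for Dkk3 and Sfrp1. The order did not hold at the lower end. Hyperoxic ventricles 4, 5 and 6 had less Myl7, at 6.95, 2.66 and 8.78 CPM, but more Dkk3, at 26.43, 24.56 and 25.63 CPM. Their Sfrp1 was higher too, at 38.55, 38.64 and 42.96 CPM, beside 33.59 CPM in room-air ventricle 2. As a share of the mean Myl7 of same-oxygen atria, Myl7 was 0.0362 to 1.74% in hyperoxic ventricles (median 0.119%) and 0.278 to 7.56% in room-air ventricles (median 3.24%). The next values assume that all Myl7 in ventricles came from atrial RNA of average make-up. The source of this Myl7 was not tested. That share of the atrial mean would then carry, as a median, 1.11% of the Sfrp2 level of hyperoxic ventricles and 42.7% of that of room-air ventricles. In hyperoxic ventricles the medians were 2.46% for Dkk3, 0.722% for Sfrp1, 1.38% for Wnt11 and 0.0133% for Wif1. In room-air ventricles they were 42.6% for Dkk3, 22.7% for Sfrp1, 19.5% for Wnt11 and 0.657% for Wif1.

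**Figure D4:**
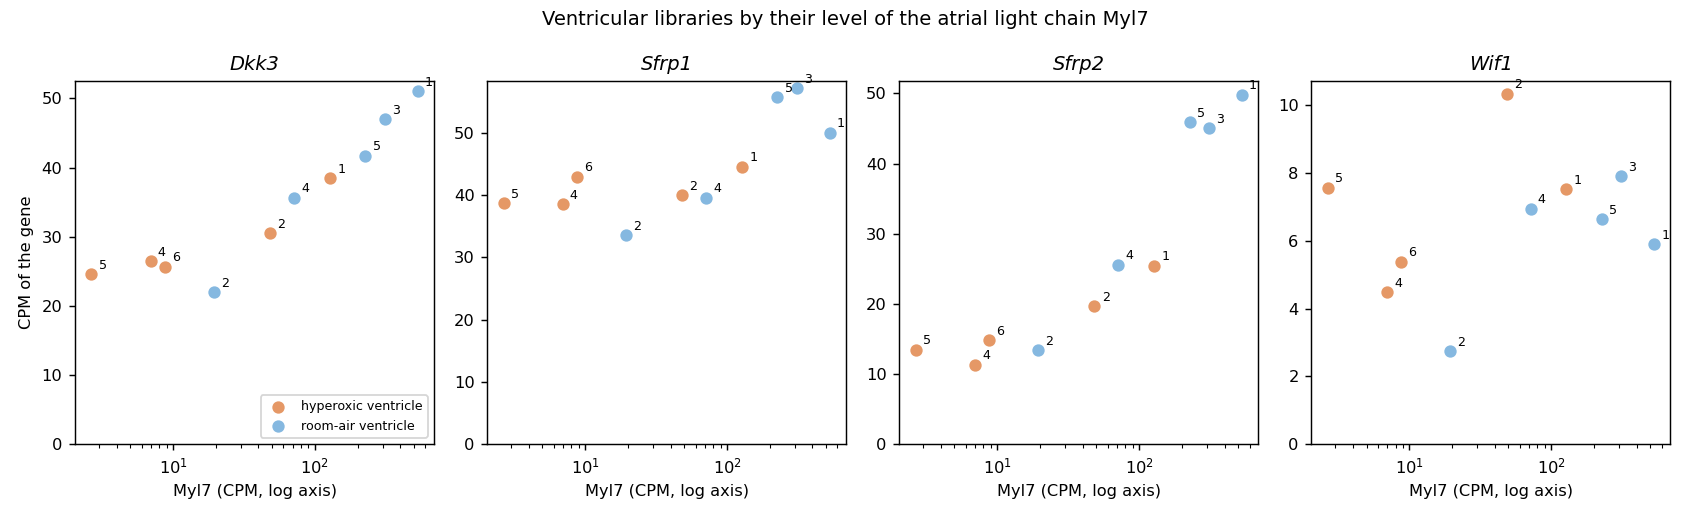
Level of Dkk3, Sfrp1, Sfrp2 and Wif1 in the 10 ventricular libraries (CPM, linear axis from 0) against Myl7 (CPM, log axis), with library numbers. Room-air ventricles 1, 3 and 5 have the most Myl7 and the highest Dkk3, Sfrp1 and Sfrp2. Wif1 shows no such order.

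Dkk3 had 38.5, 30.5, 26.4, 24.6 and 25.6 CPM in hyperoxic ventricles, against 51.1, 22.0, 47.0, 35.6 and 41.7 CPM in room-air ventricles. The groups overlapped through hyperoxic ventricle 1 and room-air ventricle 2, and the log2 difference was -0.44 (SE 0.16, adjusted p = 0.081). Leaving out either of these libraries let it pass (-0.56, adjusted p = 0.038, and -0.59, adjusted p = 0.013), and with the Myl7 covariate it was 0.12 (adjusted p = 0.67). Sfrp1 averaged 40.9 ± 2.69 CPM in hyperoxic ventricles and 47.2 ± 10.3 CPM in room-air ventricles (-0.21, SE 0.13, adjusted p = 0.28).

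The other antagonists and the ligands did not pass in the ventricle. Sfrp5 had 75, 53, 17, 86 and 56 reads in hyperoxic ventricles, against 21, 5, 108, 20 and 35 reads in room-air ventricles, a wide spread in which room-air ventricle 3 held the most (0.54, SE 0.50, adjusted p = 0.49). Wif1 averaged 7.06 ± 2.27 CPM in hyperoxic ventricles and 6.02 ± 1.98 CPM in room-air ventricles (0.23, SE 0.28, adjusted p = 0.62), and Frzb 9.44 ± 1.71 CPM in hyperoxic ventricles and 8.14 ± 1.11 CPM in room-air ventricles (0.21, SE 0.13, adjusted p = 0.28). Both ligands overlapped between the groups. Wnt5a averaged 5.98 ± 1.21 CPM in hyperoxic ventricles and 6.11 ± 1.76 CPM in room-air ventricles (-0.03, SE 0.18), and Wnt11 2.35 ± 0.250 CPM in hyperoxic ventricles and 2.57 ± 0.368 CPM in room-air ventricles (-0.13, SE 0.14). Axin2 averaged 2.23 ± 0.702 CPM in hyperoxic ventricles and 1.45 ± 0.873 CPM in room-air ventricles (0.61, SE 0.34, adjusted p = 0.23). Lef1 averaged 0.506 ± 0.388 CPM in hyperoxic ventricles, where number 4 had no read (the limit a count of 0 allows is 0.123 CPM), and 1.01 ± 0.566 CPM in room-air ventricles (-0.97, SE 0.56, adjusted p = 0.25).

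Whether the atrium and the ventricle responded unlike each other was tested directly, as the atrial minus the ventricular response. Of the 10 genes 2 were higher (Frzb and Wnt11), 3 lower (Sfrp2, Sfrp5 and Wif1) and 5 did not pass, against 36.5% of all genes, 17.0% higher and 19.5% lower. Wnt11 differed by 0.67 (SE 0.18, adjusted p = 0.0070), with 0.54 in the atrium and -0.13 in the ventricle, and Frzb by 0.63 (SE 0.18, adjusted p = 0.0094). The call of Wnt11 held in all 32 other settings. Sfrp2 differed by -1.10 (SE 0.35, adjusted p = 0.018), Wif1 by -1.40 (SE 0.44, adjusted p = 0.017) and Sfrp5 by -2.49 (SE 0.85, adjusted p = 0.026). With the length slope as covariate these 3 no longer passed, Sfrp2 at -0.89 (adjusted p = 0.27), Wif1 at -1.36 (0.12) and Sfrp5 at -1.41 (0.38). Sfrp2 also lost its call with no filter on low counts (-1.11, adjusted p = 0.067) and without the tilted libraries (-0.98, 0.14), as did Sfrp5 without the tilted libraries (-2.28, 0.090). By contrast, with ventricular Myl7 as a covariate Sfrp2 differed by -2.05 (adjusted p = 5.6e-06). Sfrp5 differed by -3.27 without room-air ventricle 3.

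The chamber comparisons gave the largest differences. In hyperoxia 6 of the 10 genes were higher in the atrium, 2 lower and 2 did not pass, against 48.8% of all genes passing, 25.2% higher and 23.6% lower. In room air 7 were higher, 3 lower and none failed to pass, against 55.0% of all genes, 28.7% higher and 26.3% lower. The groups did not overlap for 8 genes in hyperoxia (32.9% of all genes) and for 7 in room air (46.5%). The median log2 difference of the 10 genes was 1.61 in hyperoxia and 1.34 in room air, beside 0.01 and 0.03 over all genes.

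Both ligands were atrial. Wnt11 averaged 24.5 ± 3.03 CPM in hyperoxic atria and 2.35 ± 0.250 CPM in hyperoxic ventricles, a 10.4-fold higher level (log2 difference 3.38, SE 0.14, adjusted p = 1.1e-14), and in room air the log2 difference was 2.71 (SE 0.13, adjusted p = 2.4e-13). Wnt5a differed by 1.89 (SE 0.18, adjusted p = 7.6e-09) in hyperoxia and by 1.74 (SE 0.18, adjusted p = 2.6e-08) in room air. Every atrium was above every ventricle for both ligands.

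The abundant antagonists were atrial as well. Dkk3 was 18.1-fold higher in hyperoxic atria than in hyperoxic ventricles (log2 difference 4.18, SE 0.18, adjusted p = 3.5e-14) and 13.9-fold higher in room air (3.80, SE 0.18, adjusted p = 1.5e-13). Sfrp1 differed by 2.67 (SE 0.13, adjusted p = 3.3e-13) in hyperoxia and by 3.05 (SE 0.14, adjusted p = 7.5e-14) in room air. Sfrp2 was 7.85-fold higher in hyperoxia (2.97, SE 0.27, adjusted p = 3.9e-09) and 16.9-fold higher in room air (4.07, SE 0.28, adjusted p = 4.0e-11). Frzb showed the smallest step, 1.32 (SE 0.13, adjusted p = 1.4e-08) in hyperoxia and 0.68 (SE 0.13, adjusted p = 0.00011) in room air. Fibroblast, epicardial and endocardial markers were also higher in atria: 7 of 10, 7 of 8 and 5 of 6 in hyperoxia, and 10 of 10, 7 of 8 and 6 of 6 in room air. In hyperoxia 2 fibroblast markers were lower, and in room air 1 epicardial marker. All 8 macrophage markers were higher at both oxygen levels, and of 6 erythroid markers 5 in hyperoxia and 1 in room air. Of 8 endothelial markers 7 were lower and 1 higher in hyperoxia, and 5 lower in room air. Over all genes 25.2% were higher in hyperoxia and 28.7% in room air. The part of these cell types in the chamber differences was not tested.

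Wif1 and Sfrp5 were ventricular. Wif1 had 0.497 to 0.713 CPM in hyperoxic atria, against 7.53, 10.3, 4.48, 7.56 and 5.38 CPM in hyperoxic ventricles, 11.8-fold lower in the atrium (log2 difference -3.56, SE 0.33, adjusted p = 8.0e-09). In room air its ventricular values were 5.89, 2.73, 7.91, 6.94 and 6.64 CPM, and the log2 difference was -2.16 (SE 0.31, adjusted p = 3.6e-06). The atrium nearest to the ventricles was again room-air atrium 1, at 2.58 CPM beside 2.73 CPM in room-air ventricle 2. Sfrp5 differed by -4.51 (SE 0.64, adjusted p = 4.4e-06) in hyperoxia. In room air it differed by -2.02 (SE 0.55, adjusted p = 0.0035) with overlap of the libraries, and by -1.23 (adjusted p = 0.039) without room-air ventricle 3.

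**Figure D5:**
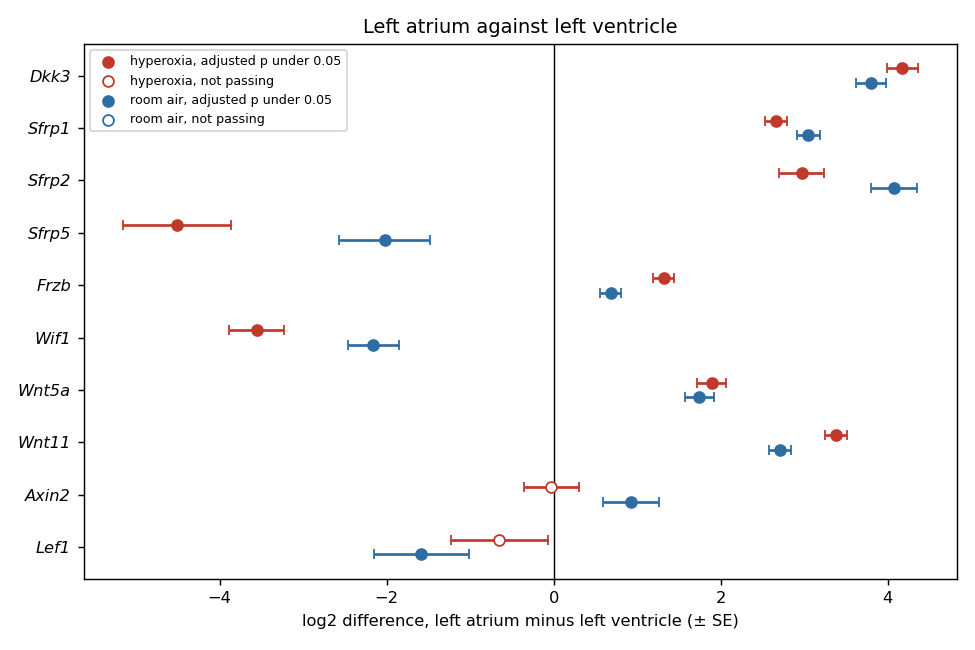
Log2 difference, left atrium minus left ventricle, in hyperoxia (red) and room air (blue), with its standard error. Filled points passed at an adjusted p under 0.05. Dkk3, Sfrp1, Sfrp2, Frzb, Wnt5a and Wnt11 lie right of 0 at both oxygen levels, Wif1 and Sfrp5 left of 0, and Axin2 and Lef1 are filled in room air; the test of the difference between oxygen levels did not pass for either (adjusted p = 0.11 and 0.38).

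Axin2 and Lef1 were less clear between chambers. Axin2 had 2.93, 1.36, 2.24, 1.53 and 2.85 CPM in hyperoxic atria, against 2.33, 3.10, 2.55, 1.98 and 1.21 CPM in hyperoxic ventricles, which overlap (log2 difference -0.03, SE 0.33, adjusted p = 0.95). In room air it had 2.89, 3.25, 2.50, 2.12 and 3.09 CPM in atria, against 1.29, 0.949, 1.73, 0.493 and 2.78 CPM in ventricles (0.93, SE 0.33, adjusted p = 0.023). That call was lost without room-air atrium 2 (adjusted p = 0.051), room-air ventricle 2 (0.063) or room-air ventricle 4 (0.061), and with the length slope as covariate (0.43, adjusted p = 0.23). Lef1 had 0.170 to 0.518 CPM in room-air atria and 0.493 to 1.87 CPM in room-air ventricles (-1.58, SE 0.57, adjusted p = 0.022). This call was lost without room-air atrium 1 (adjusted p = 0.058), room-air atrium 4 (0.056) or room-air ventricle 1 (0.082), and with ventricular Myl7 as a covariate (0.078). In hyperoxia Lef1 did not pass (-0.65, SE 0.58, adjusted p = 0.38).

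The rest of the pathway was read from a list of 96 other genes, 79 of them passing the filter. In hyperoxic atria 5 were higher, 41 lower and 33 did not pass; the median log2 difference was -0.43. Over all genes 19.7% were higher and 24.2% lower, and the median was -0.06. All 7 planar cell polarity genes, which organise cells in the plane of a tissue, were lower, as were 11 of 16 receptors and co-receptors, 8 of 12 nuclear factors and 6 of 14 cytoplasmic transducers, and none of these 4 sets held a higher gene; with the length slope as covariate 2 cytoplasmic transducers were higher, and 1 without the tilted libraries. Both genes of ligand release were lower, Wls by -0.53 and Porcn by -0.92. With the length slope and Y-linked reads as joint covariates, 4 of the 79 genes were higher and 24 lower, 6 of 7 planar cell polarity genes and 4 of 16 receptors among the lower ones and 1 of 14 cytoplasmic transducers among the higher ones.

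The higher genes in hyperoxic atria were Myc, Ccnd1, Sost, Rspo1 and Sp5. Myc, a growth regulator and one of the known beta-catenin targets, averaged 29.7 ± 2.98 CPM in hyperoxic atria and 13.6 ± 1.79 CPM in room-air atria (log2 difference 1.12, SE 0.13, adjusted p = 6.8e-07). Cyclin D1, Ccnd1, averaged 50.2 ± 2.55 CPM in hyperoxic atria and 34.2 ± 3.56 CPM in room-air atria (0.55, SE 0.08, adjusted p = 1.6e-05). Both genes answer to many other signals. Of the 9 tested feedback and target genes on the list, 3 were higher, 2 were lower and 4 did not pass. Nkd1 of this set, named after its value was seen, averaged 12.2 ± 1.71 CPM in hyperoxic atria and 21.7 ± 1.51 CPM in room-air atria. Sost, a secreted Lrp5 and Lrp6 antagonist, averaged 42.2 ± 10.3 CPM in hyperoxic atria and 27.9 ± 5.73 CPM in room-air atria (0.60, adjusted p = 0.014), and its call was lost without hyperoxic atrium 3 (0.46, adjusted p = 0.056) and with Y-linked reads as a covariate (adjusted p = 0.069). Rspo1, which amplifies Wnt signals, averaged 24.5 ± 5.69 CPM in hyperoxic atria and 16.0 ± 2.19 CPM in room-air atria (0.62, adjusted p = 0.048), and leaving out any 1 of the 5 room-air atria lost it (adjusted p = 0.056 to 0.11). Sp5, named after its value was seen, stood at 0.768 ± 0.299 CPM in hyperoxic atria and 0.192 ± 0.0324 CPM in room-air atria (1.98, adjusted p = 0.0030).

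Among the lower genes, Lgr6, an R-spondin receptor, averaged 60.3 ± 7.33 CPM in hyperoxic atria and 141 ± 23.1 CPM in room-air atria (log2 difference -1.22, adjusted p = 2.9e-07). Vangl1, a core planar cell polarity protein, averaged 23.3 ± 2.74 CPM in hyperoxic atria and 40.5 ± 2.71 CPM in room-air atria (-0.80, adjusted p = 3.0e-07), and Tcf7l2, a nuclear partner of beta-catenin, 17.2 ± 2.04 CPM in hyperoxic atria and 32.4 ± 2.78 CPM in room-air atria (-0.91, adjusted p = 5.5e-07). The lower antagonists outside the 10 were Apcdd1, Igfbp4 and Sfrp4. Apcdd1, a membrane-bound inhibitor, averaged 38.3 ± 5.24 CPM in hyperoxic atria and 88.0 ± 6.84 CPM in room-air atria (-1.20, adjusted p = 7.9e-07), and Sfrp4, the remaining frizzled-related gene and named after its value was seen, 0.400 ± 0.181 CPM in hyperoxic atria and 2.58 ± 0.484 CPM in room-air atria (-2.68, adjusted p = 1.7e-05). Of the 5 frizzled-related genes, 4 were lower in hyperoxic atria and Frzb was higher, against 24.2% of all genes lower and 19.7% higher. The 4 include Sfrp4, added after its value was seen, and Sfrp5, whose call was lost in several settings. Of the other Wnt ligands 1 of 10 changed, Wnt5b, at 6.57 ± 0.528 CPM in hyperoxic atria and 11.6 ± 0.917 CPM in room-air atria (-0.82, adjusted p = 0.00013).

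In hyperoxic ventricles 3 of the 79 pathway genes were higher (Ror2, Prickle1 and Axin1), 3 lower (Igfbp4, Ctnnbip1 and Apcdd1) and 73 did not pass; the median log2 difference was 0.07. Over all genes 5.64% were higher and 5.28% lower, so that the list held no larger share of calls than the background. Ror2, a receptor for Wnt5a, averaged 15.4 ± 1.64 CPM in hyperoxic ventricles and 10.5 ± 1.76 CPM in room-air ventricles (log2 difference 0.56, adjusted p = 0.0050). In the atrium Ror2 was lower, at 17.7 ± 1.36 CPM in hyperoxic atria and 25.1 ± 2.36 CPM in room-air atria (-0.51, adjusted p = 0.00081), and the 2 responses differed (-1.07, SE 0.16, adjusted p = 4.6e-05). Prickle1, a planar cell polarity gene, had 0.34 in the ventricle (adjusted p = 0.0065) and -0.47 in the atrium (adjusted p = 1.7e-05), a difference of -0.81 (adjusted p = 6.8e-06). With ventricular Myl7 as a covariate none of the 6 ventricular calls passed, Ror2 at 0.62 (adjusted p = 0.069) and Apcdd1 at -0.22 (adjusted p = 0.50) among them. Over the list, 4 genes had a higher and 39 a lower response in the atrium than in the ventricle, against 17.0% and 19.5% of all genes. With the length slope as covariate 5 were higher and 16 lower.

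Between the chambers, 29 of the 79 pathway genes were higher and 22 lower in hyperoxic atria than in hyperoxic ventricles, and 51 and 6 in room air. Over all genes 25.2% were higher and 23.6% lower in hyperoxia, and 28.7% and 26.3% in room air. Sost was the most atrial of those named, by 4.13 in hyperoxia (adjusted p = 1.4e-12) and 3.06 in room air (adjusted p = 8.7e-11) on the log2 scale. Apcdd1 was higher in the atrium too, by 1.99 in hyperoxia and 2.66 in room air. Ccnd1 was ventricular, at 50.2 ± 2.55 CPM in hyperoxic atria and 200.5 ± 11.4 CPM in hyperoxic ventricles (-1.997, adjusted p = 2.6e-14), and by -2.74 in room air (adjusted p = 1.3e-15).

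The genes whose pattern over the 20 libraries lay nearest were found by the root mean square difference of log2 CPM, each gene centred on its own mean. For Dkk3 these were Myl1 (0.270) and Adamts8 (0.403), where Dkk3 itself varied by 2.02 on the same measure. For Sfrp1 they were Kcnj3 (0.228) and Tbx5 (0.245), beside 1.46 for Sfrp1 itself, and for Sfrp2 Adcy1 (0.493) and Osr1 (0.529), beside 2.03. Adcy1 had 10.6, 51.9, 1.05 and 1.32 CPM in hyperoxic atria, room-air atria, hyperoxic ventricles and room-air ventricles. Wnt5a lay nearest to Aebp1 (0.206) and Col5a2 (0.223), and Wnt11 to Aif1l (0.294). Frzb lay nearest to Vmp1 (0.169) and Rhod (0.176), beside 0.593 for Frzb itself, and Wif1 to Lclat1 (0.386) and Pcdh17 (0.407), beside 1.23. Sfrp5 (Prelp, 0.509, and Neurl1b, 0.511, beside 0.925) and Lef1 (Slc2a4rg-ps, 0.346, and E2f2, 0.352, beside 0.517) had no close match relative to their own spread.

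Promoter sequence was available in RefSeq (GRCm38.p6) for 7 of the 10 genes, as 250 bases before each annotated start. The windows of Wnt11, the ligand that rose, and Sfrp2, the antagonist with the smallest adjusted p among those of the 10 that fell, in hyperoxic atria are shown in 5′ to 3′ direction of the gene. Capitals mark the 6 letters CTTTGA or, on the other strand, TCAAAG, the core of sites that TCF and LEF proteins bind.
Wnt11 promoter, chr7:98834862-98835111, plus strand: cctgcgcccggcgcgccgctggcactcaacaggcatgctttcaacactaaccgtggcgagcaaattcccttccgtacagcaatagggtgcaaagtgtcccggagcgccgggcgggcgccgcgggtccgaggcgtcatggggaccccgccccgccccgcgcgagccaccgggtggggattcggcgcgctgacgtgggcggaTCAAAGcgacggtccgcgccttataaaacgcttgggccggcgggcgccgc
Sfrp2 promoter, chr3:83766071-83766320, plus strand: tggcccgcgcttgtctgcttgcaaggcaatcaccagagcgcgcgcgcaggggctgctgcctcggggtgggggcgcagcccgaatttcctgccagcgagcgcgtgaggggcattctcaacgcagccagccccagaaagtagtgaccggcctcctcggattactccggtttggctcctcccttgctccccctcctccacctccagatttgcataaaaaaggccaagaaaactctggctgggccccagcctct
The Wnt11 window holds the letters 1 time, with the first base 50 bases before the start, and the Sfrp2 window does not hold them. A second RefSeq window of Wnt11 does not hold them either, and that of Frzb holds them 1 time, with the first base 95 bases before its start. Of 4 Lef1 windows 1 holds them 2 times, and those of Wif1, Sfrp5 and Axin2 do not hold them, so that 3 of 11 windows of 7 genes hold the letters. In all, 4544 of 32851 RefSeq windows of this length (13.8%) hold the letters, and a match is no more than a description of the sequence.

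Sfrp2, Wnt5a, Wnt11, Axin2 and Lef1 share 347, 358, 364, 209 and 1208 exonic bases with a gene model on the opposite strand in the GENCODE annotation of GRCm38. The strand setting of the counting is not given in the sources used here, so reads of these overlaps cannot be told apart between the partners.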

How the data were processed

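Polyadenylated RNA was sequenced in 20 libraries, 5 in each of 4 groups. Each deposited file lists, for 1 library, the authors' raw and unnormalized count of reads per gene symbol. The submitters' processing notes name GRCm38.p6, Salmon 1.3.0, Subread 2.0.1, featureCounts, STAR 2.7.6a and fastp 0.20.1. Neither the annotation release nor how strand was treated in counting is given in the sources used here. Per the labels' protocols a stranded mRNA kit was used; the extraction kit is given differently in the sample labels and the series description. No columns were left unused (0). No 2 libraries of a group agreed within sampling noise (smallest chi-square per degree of freedom 12.25 over 40 pairs).

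The tests used edgeR 4.0.16 in R 4.3.3: filterByExpr on the 4 groups, TMM scaling, and a robust quasi-likelihood fit with 1 coefficient per group over all 20 libraries (common biological coefficient of variation 0.183). Adjusted p-values are those of its F-test, by Benjamini-Hochberg over all 16598 genes tested, with a threshold of 0.05. Dividing a log2 difference by the root of its F gave the SE. TMM-scaled library sizes underlie the CPM, and levels compared between genes are divided by exon length (GENCODE, GRCm38). The length slope uses 11150 genes of at least 5 CPM. Nearest genes were sought among genes of at least 5 CPM, with 0.5 CPM added before the logarithm, for members whose group means differ by at least 2-fold, which leaves out Axin2; 1 such gene is not reported here. The test was checked on simulated counts.

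The 10 genes, the pathway and marker lists and the tests were chosen with earlier results of these data known. All 10 genes are named in every comparison; of the 96 other pathway genes, up to 4 higher and 4 lower genes with the smallest p among those passing at 1 CPM or more. Other settings were RLE or upper-quartile scaling, no filter or a filter of 1 CPM in 5 libraries, DESeq2 1.42.0, only the libraries compared, the length slope, Y-linked reads (Uty, Ddx3y, Eif2s3y and Kdm5d), both, or ventricular Myl7 as covariates, the replicate number as a block, each library left out, no tilted libraries (slope under -0.2), and, added after seeing the data, only libraries whose Y-linked reads exceed those of Xist. The limit a count of 0 allows is 3 counts per library and covers counting error only.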

Additional observations from a re-analysis of the deposited data

Results flagged for a closer look

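In the room-air atria Wif1 of library 1, at 2.58 CPM, lay apart from the other 4 room-air atria, at 0.724 to 1.25 CPM; its gap to the next library took 0.718 of the range of the group, above Dixon's critical value of 0.71 for 5 samples. It was the only one of 40 gene and group combinations tested to do so, and chance flags about 1 in 20. Myl2, a light chain of ventricular muscle, stood at 328 CPM in the same library, and the part of ventricular RNA in its Wif1 level was not tested.

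The response to hyperoxia differed between atrium and ventricle for 5 genes in the test of the difference itself, as the atrial minus the ventricular log2 difference. The values were 0.67 for Wnt11 and 0.63 for Frzb, and -1.10 for Sfrp2, -1.40 for Wif1 and -2.49 for Sfrp5. Adjusted p was 0.0070 for Wnt11, 0.0094 for Frzb, 0.018 for Sfrp2, 0.017 for Wif1 and 0.026 for Sfrp5 (edgeR's quasi-likelihood test). For these 5 genes every hyperoxic atrium lay outside the range of the room-air atria, while the ventricles overlapped.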

How the results depend on the processing

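Of 1623 values of the 10 genes over 33 other settings, 1525 kept their direction and their side of the threshold, 44 no longer passed, 11 newly passed and 43 changed sign, all of the last without a call in either setting. Between chambers no total of calls moved by over 1.5 times. By direction, the 29 pathway genes higher in hyperoxic atria became 16 in libraries whose Y-linked reads exceed those of Xist, and the 6 lower in room-air atria became 11 with the length slope and 12 with Y-linked reads too. The causes of the changes below were not tested, other than that fewer libraries or more covariates leave fewer degrees of freedom.

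In the atrium, where 6 of the 10 genes, 46 other pathway genes and 7291 genes in all passed, Y-linked reads and the length slope together left 28 pathway genes and 4690 genes, and only libraries whose Y-linked reads exceed those of Xist left 3 of the 10, with 1 hyperoxic atrium, itself tilted, whose spread is assumed to be that of the other groups. Single left-out libraries gave 5 to 6, 43 to 49 and 6381 to 7761.

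In the ventricle, where 1 of the 10 genes, 6 other pathway genes and 1813 genes in all passed, no filter gave 1021 genes in all, and DESeq2 gave 2, 11 and 2764. Only the libraries compared gave 0 of the 10. Without the tilted libraries 15 pathway genes and 3305 genes in all passed. Y-linked reads as a covariate gave 0, 1 and 254, with the length slope too 0 of the 10 and 1021 in all, and ventricular Myl7 as a covariate 0, 0 and 115. Only libraries whose Y-linked reads exceed those of Xist gave 0, 1 and 277. Single left-out libraries gave 1 to 2, 4 to 10 and 926 to 2527. The lows of 926 to 1119 came without hyperoxic ventricle 4, 5 or 6 or room-air ventricle 1, 2 or 4, and 10 pathway genes without hyperoxic atrium 2 or 4.

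For the difference of the responses, where 5, 43 and 6060 passed, the length slope gave 2, 21 and 2621, with Y-linked reads too 2, 20 and 2651, and only libraries whose Y-linked reads exceed those of Xist 1 of the 10. Single left-out libraries gave 4 to 6, 33 to 46 and 5146 to 6645. Left out 1 at a time they also moved calls: Sfrp5 lost its call without hyperoxic ventricle 5 (adjusted p = 0.056) or room-air atrium 5 (0.053), while Dkk3 passed without room-air ventricle 2 (0.027), Sfrp1 without room-air ventricle 3 (0.048) and Axin2 without room-air ventricle 5 (0.023).

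The replicate numbers were not shown to pair the samples. Deviations from the group means were correlated between same-numbered libraries. Between room-air atria and ventricles the correlations were -0.00024 for number 1 and 0.12 to 0.41 for numbers 2 to 5. The same number was the best match there in 3 of 5. Between hyperoxic atria and ventricles 1, 2, 4 and 5 they were 0.021 to 0.19, and only number 5 was its own best match. Y-linked reads exceeded those of Xist in both hyperoxic chambers numbered 2, and in neither for numbers 1, 4 and 5. Between oxygen levels, where same-numbered pups differ, the correlations were -0.20 to 0.46. With the replicate block 0 of the 10 genes and 10 other pathway genes passed in the ventricle, Sfrp2 there at -0.86 (adjusted p = 0.13). Axin2 passed for the difference of the responses (-1.33, adjusted p = 0.048), and Lef1 lost its call between room-air chambers (-1.52, adjusted p = 0.051). The block changed no other call of the 10 genes; Sfrp5 was not tested with it in the atrium.

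Signs changed for values without a call. In the atrium Lef1 was 0.0088 with upper-quartile scaling, 0.0233 with only the libraries compared, 0.22 with the length slope, 0.11 without the tilted libraries, 0.15 with Y-linked reads, 0.52 with both covariates and 0.0326 with the replicate block, and it ranged from -0.3108 to 0.1801 over single left-out libraries. Dkk3 was 0.0187 with the filter of 1 CPM, 0.0061 with only the libraries compared, 0.0032 with the replicate block and 0.0862 in libraries with more Y-linked reads, and -0.0983 to 0.0181 over left-out libraries. Axin2 was 0.22 with the length slope and 0.24 with both covariates. Wnt5a was -0.0428 with Y-linked reads and -0.28 in libraries with more Y-linked reads. In the ventricle, ventricular Myl7 gave 0.12 for Dkk3, 0.0705 for Sfrp1 and 0.41 for Wnt5a, and Wnt5a was 0.14 with the replicate block and -0.1467 to 0.0689 over left-out libraries. For the difference of the responses Axin2 was 0.0491 with the length slope and 0.0556 with both covariates, Dkk3 -0.18 with ventricular Myl7, and Wnt5a -0.30 with ventricular Myl7, -0.0006 with the replicate block and -0.11 in libraries with more Y-linked reads. Between hyperoxic chambers Axin2 was 0.48 with the length slope, 0.26 without the tilted libraries, 0.48 with both covariates and -0.1851 to 0.1158 over left-out libraries.

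Depth limits Lef1 and atrial Sfrp5 most, with 1 to 7 reads of Sfrp5 in each hyperoxic atrium. Lef1 was not tested under the filter of 1 CPM.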
